A study of Oryza sativa with 20 samples.

Results

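The loci described here are 82 rice genes whose transcript level stood higher after 6 h of leaf folder feeding than at every other time and was no longer far above the control at 24 h. They were chosen by their measured values among 20343 OS loci (identifiers of the form OS04G0675400, whose first 2 digits give the chromosome) that reached 0.5 FPKM in no fewer than 4 of the 20 libraries. FPKM is the number of sequenced fragments scaled to the length of the transcript and the size of the library. The mean log2(FPKM + 1) of the 4 libraries at 6 h had to exceed the means at 0, 1, 12 and 24 h by at least 0.8 each, and the 24 h mean had to exceed the 0 h mean by less than 0.8. The members made up 0.403% of these loci. The level at 6 h against the other times, and the level at 24 h against 0 h, are therefore the basis of the choice and are given as a description.

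The plants were Minghui 63 rice, 5 weeks old, and all 20 libraries were made from their leaves. In the 1, 6, 12 and 24 h groups, 1 starved larva of the rice leaf folder Cnaphalocrocis medinalis, a caterpillar that folds and chews rice leaves, fed inside a Parafilm bag on a leaf, and the 0 h control carried the bag without a larva. Feeding was started at different times and every leaf was collected at the same moment. Each group had 4 libraries, and in each library leaves of 5 plants were merged, so the spread between libraries is one between groups of plants. A merged leaf sample cannot tell more RNA per cell from more cells of a kind.

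Chewing insects wound leaf tissue and bring oral secretions into contact with it, and plants answer with waves of transcription. In the best known of these, jasmonate conjugated to isoleucine lets its receptor mark the JAZ repressors for degradation, which frees MYC2 and related transcription factors to switch on defence genes and the JAZ genes themselves. A transcript that rises and falls within hours reflects the balance of its synthesis and decay, and early transient transcripts in wounded leaves often include regulators as well as enzymes. None of the sources used here gives a name or a function to any of the 82 members, so they are described by locus, level and time course, and no sequence is shown.

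The libraries held 17796514 to 22090117 fragments on genes, recovered from the FPKM values. Of 6 loci taken from general knowledge as photosynthesis markers of leaf, and named by no source used here, all 6 were above 0 in every library. Their summed level was 11005 to 12716 FPKM at 0 h, 9511 to 12396 at 1 h, 7899 to 11616 at 6 h, 6665 to 9779 at 12 h and 5802 to 8611 at 24 h. The single locus taken as a root marker was at 0 in all 20 libraries, and the seed storage marker stayed between 0.13 and 1.24 FPKM. The sum was thus lower at 12 and 24 h than at 0 h in every library, and it was carried by OS09G0346500 (8558 to 9388 FPKM at 0 h and 4722 to 6962 FPKM at 12 h) and OS01G0600900. The other 4 loci had higher ranges at 12 h than at 0 h, without overlap in OS12G0274700 (83.5 to 110.4 and 118 to 184 FPKM), so the 6 did not move together. Their part in the results on those times was not tested.

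As deposited, the FPKM of all 24058 identifiers tested stood slightly higher at 6 h, with a median log2 difference from 0 h of 0.10. After division by median-of-ratios factors this median was -0.003 and the members' own median went from 1.15 to 1.03. The rule then held for 52 loci, all of them among the 82, and for 55 of the 82 after division by upper-quartile factors. The members were chosen for a high level at 6 h, so that it stayed higher under each scaling is a description only. The number past the margin was not stable.

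**Figure D1:**
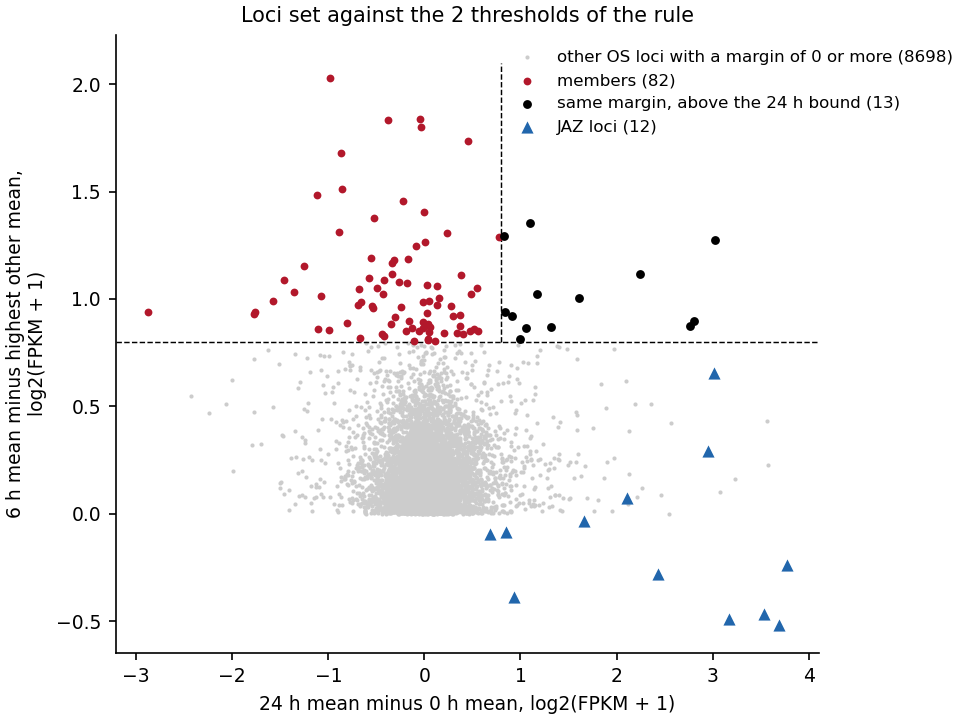
OS loci by the 2 thresholds of the rule. The y axis is the 6 h mean minus the highest other mean and the x axis the 24 h mean minus the 0 h mean, both in log2(FPKM + 1), and dashed lines mark the thresholds of 0.8. The 82 members (red) lie above the margin and left of the bound, 13 loci (black) have the same margin to the right of it, and all 12 JAZ loci (blue triangles) lie below the margin.

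At 6 h the members spanned mean levels of 1.66 to 311 FPKM, with a median of 16.02 against 9.94 for all OS loci that passed the filter. The rule chose them for a high 6 h level, which raises this median. At 0 h the median of the members was 6.05 FPKM. Of the 82, 18 had at least 50 FPKM at 6 h and 14 had less than 5. The margin over the next highest time ran from 0.80 to 2.03 with a median of 0.99, and it was at least 1 for 38 members. The ratio of the 6 h mean to the 0 h mean, in FPKM, had a median of 2.56. It lay between 1.80 and 10.2 for the 81 members with fragments in every 0 h library, and the remaining locus had 1 fragment in all at 0 h. In 59 members all 4 libraries at 6 h were above all 16 others, which 4.28% of OS loci showed. The rule asks for a high 6 h mean, so this difference follows in part from the choice.

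OS04G0675400, on chromosome 4 with a length of 1756 bases, had the largest margin. Its level was 9.53, 8.89, 10.4 and 13.6 FPKM in the 4 control libraries and 13.4, 8.41, 8.45 and 11.4 FPKM at 1 h. At 6 h it was 32.4, 55.1, 37.2 and 66.1 FPKM, followed by 3.32, 5.26, 4.85 and 4.33 FPKM at 12 h and 6.03, 5.92, 4.10 and 3.62 FPKM at 24 h. The control and 1 h libraries overlapped, the 6 h libraries stood clear of all others, and the 12 and 24 h libraries were all below the control. OS08G0412800, on chromosome 8, came next with a margin of 1.84 at a far lower level. It measured 4.87, 7.59, 6.32 and 6.84 FPKM at 6 h against 0.38 to 1.10 FPKM at 0 h, and a single library at 1 h, replicate 4, reached 3.08 FPKM while the other 3 were at 0.89 FPKM or less. Without that library its margin would be 2.17.

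The highest levels among members with all 6 h libraries above all others were those of OS02G0460200 and OS07G0631900. OS02G0460200 gave 363, 308, 268 and 304 FPKM at 6 h, against 158 ± 18.6 FPKM (SD, n = 4) at 0 h, 161 ± 41.7 FPKM at 1 h, 132 ± 16.4 FPKM at 12 h and 98.2 ± 18.6 FPKM at 24 h. OS07G0631900 gave 123, 167, 144 and 200 FPKM at 6 h after 81.1 ± 6.63 FPKM at 0 h and 72.4 ± 4.29 FPKM at 1 h. It then stood at 28.3 ± 6.77 FPKM at 12 h and 23.2 ± 2.75 FPKM at 24 h, so both later groups were below the control without overlap. The libraries of OS02G0460200 overlapped with the control at 12 h and were all below it at 24 h (70.6 to 109 FPKM against 142 to 181 FPKM).

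**Figure D2:**
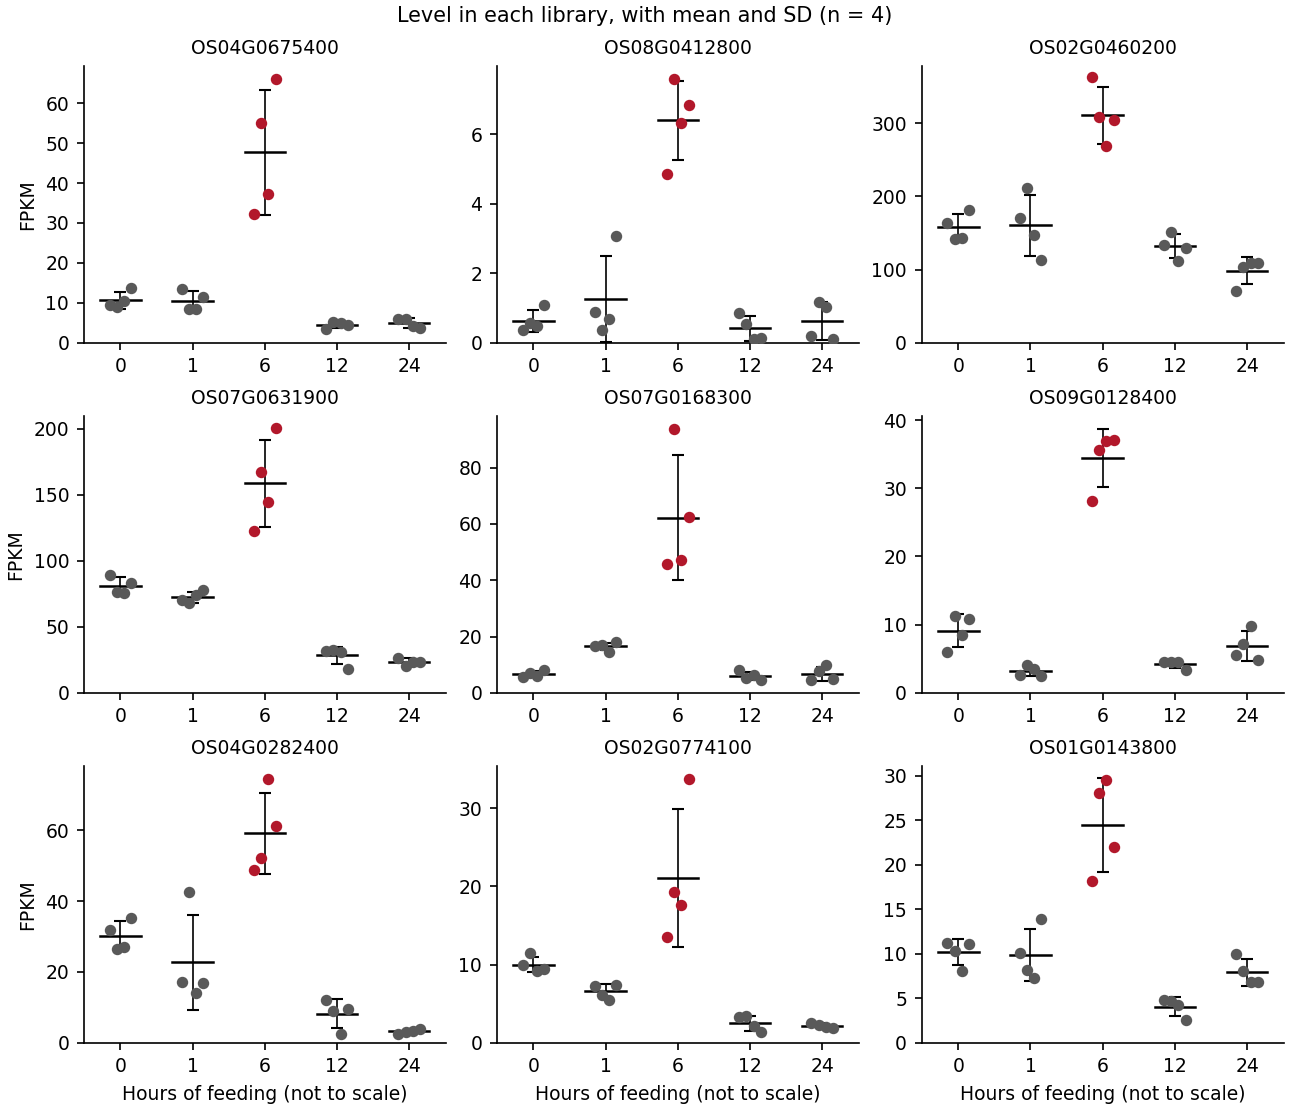
FPKM of 9 members in each library (points), with the mean and SD of each time point (bars, n = 4). The x axis gives hours of feeding, not to scale, and the y axis starts at 0. Libraries at 6 h (red) stand above all others in each panel, while the levels before and after 6 h differ between loci, from an early rise in OS07G0168300 to late levels under the control in OS07G0631900 and OS02G0774100.

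The spread between the 6 h libraries was wide. The coefficient of variation of FPKM at 6 h had a median of 21.5% over the members, against 11.5% over all OS loci that passed the filter, and it was above 50% for 8 members. A single library could set the peak of such a locus, so the choice by the 6 h mean in part favours a wide spread. OS01G0720500 measured 53.6, 2.54, 384 and 130 FPKM at 6 h, so that 1 of the 4 libraries was under every control library (4.44 to 64.5 FPKM). OS11G0323860 gave 1.68, 47.1, 32.01 and 60.0 FPKM at 6 h and spread as widely at 0 h, with 1.66, 28.6, 41.7 and 1.89 FPKM. OS03G0437600 was high in all 4 libraries at 6 h, from 144 to 345 FPKM, but reached 340 FPKM in 1 library at 12 h and 224 FPKM in 1 library at 24 h.

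With the test used for the other times (limma-trend on log2(FPKM + 1), called at an adjusted p, or FDR, under 0.05 over 24058 identifiers), 77 of the 82 members were higher at 6 h than at 0 h, beside 18.6% of all identifiers higher and 5.02% lower. The rule used this difference, and nothing is read from the count. After median-of-ratios division 74 of the 82 passed, beside 10.1% of identifiers higher and 10.4% lower. The 5 that did not pass as deposited were OS01G0720500, OS11G0323860 and OS03G0437600, all with the wide spread above, together with OS04G0282400 and OS04G0678700. The 6 h level rested on at least 100 fragments per library on average for 75 members, and the lowest mean was 15.5 fragments, for OS09G0273600.

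Close to the thresholds, the 3 members with the smallest margins were OS01G0665900 (0.80), OS02G0826100 (0.81) and OS09G0273600 (0.81). The 3 loci just short of it were OS12G0611200 (0.80 after rounding), OS08G0240200 (0.79) and OS08G0357000 (0.79). At the bound on the 24 h level, the nearest members were OS04G0345400, whose 24 h mean exceeded its 0 h mean by 0.78 on the log2 scale, OS11G0261900 (0.56) and OS01G0837000 (0.55). On the other side were OS12G0582700 (0.82), OS04G0606200 (0.84) and OS10G0571600 (0.91). Loci fell on both sides of the margin without a gap, so membership near 0.8 is a matter of degree.

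The 1 h libraries showed which members had begun to move early, and the rule set no order between 1 h and 0 h. Only 3 members passed the test as higher at 1 h, 3.66% of the 82 beside 1.77% of all identifiers tested, and 4 as lower, 4.88% beside 1.29%. After upper-quartile division 3 members were higher and 5 lower, beside 1.58% and 2.06% of all identifiers. The members' median log2 fold change at 1 h, on the log2(FPKM + 1) scale, was -0.08, against 0.01 for all identifiers. Of the 82 members, 52 had a 1 h mean below the 0 h mean, beside 47.9% of all identifiers. The rule keeps the 1 h mean at least 0.8 under the 6 h mean, and its 24 h bound left out 4 of the 7 loci higher at 1 h among all 95 with the margin, so these counts are in part set by the choice.

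OS07G0168300, on chromosome 7, was the clearest early riser. Its level was 5.77, 6.93, 6.13 and 8.09 FPKM at 0 h, 16.5, 16.8, 14.6 and 17.9 FPKM at 1 h, and 45.6, 93.8, 47.3 and 62.4 FPKM at 6 h. At 12 h it was back at 5.98 ± 1.55 FPKM and at 24 h at 6.78 ± 2.48 FPKM (SD, n = 4). All 4 libraries at 1 h were above all 4 controls, with a log2 fold change of 1.18 ± 0.23 (SE) and an FDR of 0.00706, and the FDR did not exceed 0.0264 under any setting tried. OS07G0111900 went from 2.71 ± 0.28 FPKM at 0 h to 5.51 ± 1.35 FPKM at 1 h, a log2 fold change of 0.79 ± 0.17 (SE, FDR = 0.0146, at most 0.0468 under any setting). Its libraries at 1 h, from 4.22 to 6.95 FPKM, did not overlap with the control libraries. The other locus, OS04G0345400, rose from 1.28 ± 0.14 FPKM to 2.90 ± 0.96 FPKM, a log2 fold change of 0.74 ± 0.19 with an FDR of 0.0405. That call was lost in 11 of 20 fits that left out 1 library, with an FDR of up to 0.112. The 11 were each of the 4 libraries at 0 h, replicates 1 to 3 at 1 h, replicate 3 at 6 h and replicates 2 to 4 at 12 h.

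OS09G0128400, on chromosome 9, moved the other way before its peak. It measured 6.01, 11.2, 8.53 and 10.8 FPKM at 0 h and 2.65, 4.02, 3.47 and 2.46 FPKM at 1 h, then 28.2, 35.6, 37.0 and 37.1 FPKM at 6 h. The groups at 0 h and 1 h did not overlap, and the log2 fold change was -1.27 ± 0.19 (SE) with an FDR of 0.00162 and at most 0.0215 under any setting. At 12 h the level was 4.22 ± 0.60 FPKM, again under every control library, and at 24 h it was 6.84 ± 2.18 FPKM. The course of this transcript was therefore lower, higher and lower than the control over the 1, 6 and 12 h groups.

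The other 3 loci lower at 1 h were OS05G0231700 (log2 fold change -0.69, FDR = 0.0309), OS10G0445400 (-0.60, FDR = 0.0201) and OS03G0765400 (-0.68, FDR = 0.0469). OS10G0445400 measured 12.1 to 20.8 FPKM at 0 h and 9.86 to 10.7 FPKM at 1 h, without overlap. Its call was lost without replicate 2, 3 or 4 at 0 h or replicate 3 or 4 at 1 h (FDR up to 0.0753). The call of OS05G0231700 was lost without replicate 2 or 4 at 0 h or replicate 1 or 4 at 1 h (FDR up to 0.105), and that of OS03G0765400 in 17 of the 20 fits, all but those without replicate 1 or 4 at 6 h or replicate 4 at 12 h (FDR up to 0.149). The call of OS03G0765400 was also lost with limma-voom and with the replicate block. With only the 2 groups compared, the calls of these 3 loci and that of OS04G0345400 at 1 h were lost, and without the filter those of OS03G0765400, OS05G0231700 and OS04G0345400. The number of members lower at 1 h was 1 without replicate 2 or 4 at 0 h or replicate 4 at 1 h, 2 without replicate 3 at 0 h or replicate 1 at 1 h, and 7 without replicate 4 at 6 h. All 4 members that were lower at 1 h passed the test as lower at 12 h as well, against the same 0 h libraries.

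After the peak, 31 of the 82 members (37.8%) were lower at 12 h than at 0 h, beside 8.63% of all identifiers tested, and 0 were higher, beside 5.76%. The rule set no order between 12 h and 0 h. It kept the 12 h mean at least 0.8 under the 6 h mean, which limited rises above 0 h but not falls. These counts are thus in part set by the choice. The rule's bound on the 24 h level also holds back loci with a low control level. Over all 95 loci with the margin, within the bound or not, 31 were lower and 5 higher. The members' median log2 fold change at 12 h was -0.31 against -0.03 for all identifiers. After median-of-ratios division 29 members were lower, all among the 31, and 1 was higher, beside 6.78% of all identifiers lower and 7.51% higher. Leaving out each library in turn gave 25 to 32 members lower, with 25 lower in all 20 of these fits. At unadjusted p under 0.05, a threshold at which all identifiers were not counted, limma-trend put 2 members higher at 12 h. At an FDR under 0.05, limma-voom on the recovered fragments called 0.

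The 31 loci had fallen by a median of 0.96 on the log2 scale, from a median level of 10.01 FPKM at 0 h to 4.11 FPKM at 12 h. In 29 of them all 4 libraries at 12 h were below all 4 controls, a separation that 32 of the 82 members and 11.6% of all identifiers showed. Their highest mean outside 6 h was at 0 h in 30 of the 31. At 1 h their median log2 fold change was -0.41, with 4 called lower and 0 higher, against 0.05 for the other 51 members. The 31 were picked by a test against the 0 h libraries. The separation from the controls, the highest other mean at 0 h and the 1 h values use the same libraries and follow in part from that choice.

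**Figure D3:**
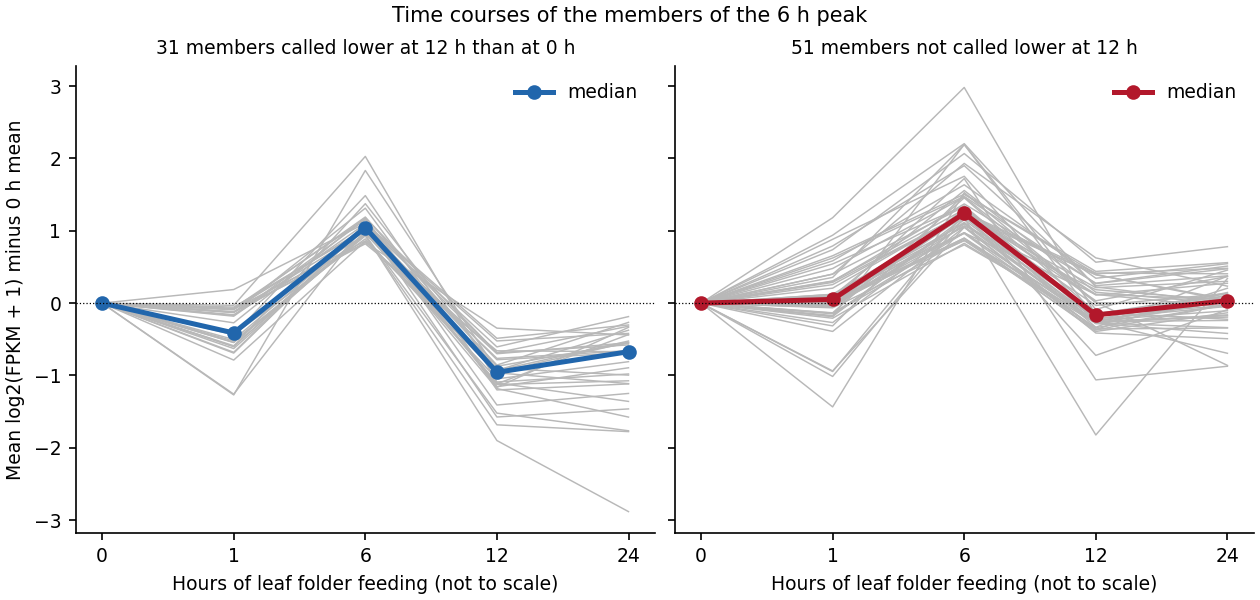
Time course of each member (grey lines), as the mean log2(FPKM + 1) of 4 libraries minus that at 0 h, over hours of feeding (x axis, not to scale), with the median of each panel in colour. The left panel holds the 31 members called lower at 12 h than at 0 h, whose median was -0.96 at 12 h and -0.67 at 24 h. The right panel holds the other 51, whose median was -0.16 at 12 h and 0.03 at 24 h.

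OS04G0282400 and OS02G0774100 fell furthest among the loci that passed. OS04G0282400, on chromosome 4, measured 31.8, 26.4, 27.0 and 35.2 FPKM at 0 h and 48.9, 52.1, 74.4 and 61.1 FPKM at 6 h. It then dropped to 12.0, 9.04, 2.47 and 9.40 FPKM at 12 h and 2.42, 3.12, 3.45 and 3.91 FPKM at 24 h. Every library at 12 h was below every control, with a log2 fold change of -1.90 ± 0.34 (SE, FDR = 0.00109, at most 0.0165 under any setting). OS02G0774100, on chromosome 2, measured 10.003, 11.4, 9.16 and 9.45 FPKM at 0 h, 13.6, 19.3, 17.6 and 33.7 FPKM at 6 h and 3.27, 3.38, 2.094 and 1.37 FPKM at 12 h. The log2 fold change at 12 h was -1.68 ± 0.22 with an FDR of 4.8e-05, at most 0.00236 under any setting. At 6 h its replicate 4 was well above the other 3 libraries.

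The remaining 51 members were closer to the control after the peak. Their median level was 3.86 FPKM at 0 h, 4.51 FPKM at 1 h, 12.6 FPKM at 6 h, 3.39 FPKM at 12 h and 4.45 FPKM at 24 h. The highest mean outside 6 h was at 1 h in 19 of them, at 24 h in 14, at 0 h in 10 and at 12 h in 8. All 3 members that were higher at 1 h were in this group, and 0 of the 4 lower ones. The calls at 1 h and at 12 h share the 0 h libraries, so no relation is read from this. At 12 h, 2 of the 51 were higher at an unadjusted p under 0.05, OS03G0726200 (log2 fold change 0.42, FDR = 0.0898) and OS04G0345400. For OS04G0345400 the log2 fold change was 0.57 ± 0.19 (SE), with an FDR of 0.0540 as deposited and of 0.00867 to 0.114 over the settings tried. OS04G0345400 was also the single member called above the control at 24 h.

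**Figure D4:**
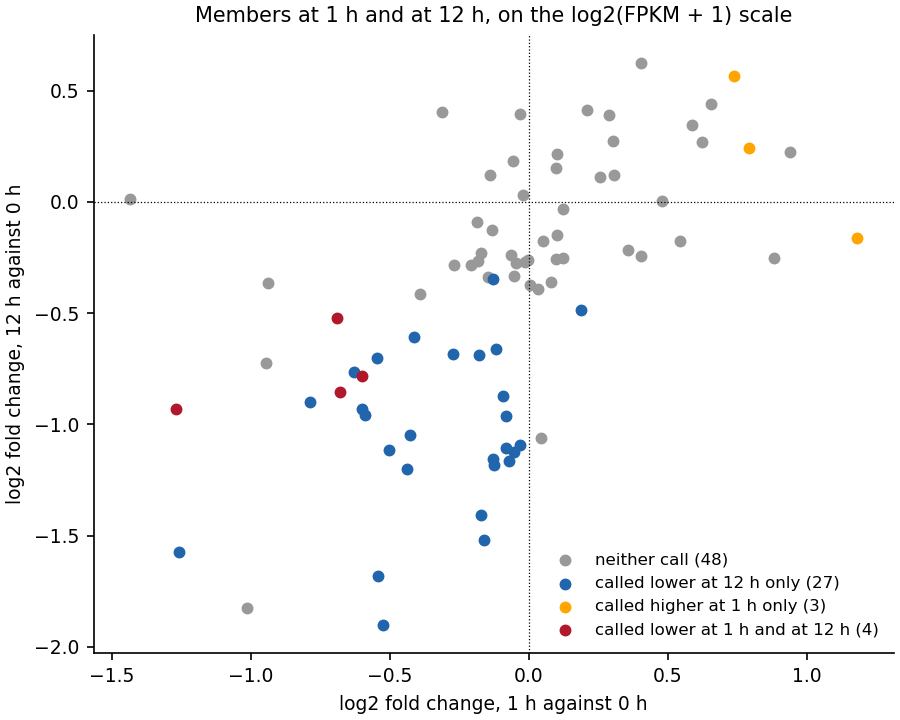
Log2 fold change of each member at 1 h against 0 h (x axis) and at 12 h against 0 h (y axis), on the log2(FPKM + 1) scale, coloured by the calls at FDR under 0.05. The 4 members called lower at 1 h (red) lie among the 31 called lower at 12 h, and the 3 called higher at 1 h (orange) do not. Both axes share the 0 h libraries, so no relation between them is read from the plot.

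At 24 h, which the rule held under its bound, 22 members were lower than at 0 h (beside 8.03% of all identifiers) and 1 was higher (beside 12.7%). Of the 31 members lower at 12 h, 21 (67.7%) were also lower at 24 h, and these were 95.5% of the 22. The exception was OS02G0460200, the most abundant of the separated members, which was lower at 24 h and did not pass at 12 h (log2 fold change -0.26, FDR = 0.349). These 2 comparisons share the control libraries. After upper-quartile division the shares of all identifiers at 24 h were 11.5% lower and 10.3% higher. The counts of members given here are on the deposited scale.

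Between 12 h and 24 h the shares of members called were near those of all identifiers. OS01G0143800, on chromosome 1, was the single member higher at 24 h than at 12 h (1.22% of the members), beside 2.12% of all identifiers. At unadjusted p under 0.05, limma-trend put 13 members higher. All identifiers were not counted at that threshold, so nothing is read from this number. The 24 h mean was above the 12 h mean in 57 of the 82 members, beside 63.4% of all identifiers. OS01G0143800 measured 11.2, 10.3, 8.08 and 11.1 FPKM at 0 h, 18.2, 28.01, 29.5 and 21.97 FPKM at 6 h, 4.78, 4.72, 4.22 and 2.52 FPKM at 12 h and 9.96, 8.07, 6.79 and 6.81 FPKM at 24 h. The 24 h libraries were all above the 12 h libraries and reached the lower edge of the control range, with a log2 fold change of 0.83 ± 0.20 (SE) and an FDR of 0.0347. The call was lost without replicate 3 or 4 at 12 h, without replicate 1, 2 or 3 at 24 h (FDR up to 0.0971) and with limma-voom. By limma-trend 0 members were lower at 24 h than at 12 h, beside 0.623% of all identifiers, with 3 at unadjusted p under 0.05 and 0 by limma-voom. Without replicate 3 at 12 h there was 1, OS04G0282400 (-1.40). After median-of-ratios division the shares of all identifiers were 1.21% higher and 1.13% lower, while the limma-trend counts of members given here are on the deposited scale. The median of the members between these times was 0.13, against 0.07 for all identifiers.

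The members also differed in which library was highest within a time point. The rule used the mean of the 4 libraries and not their order, but a high library at 6 h raises that mean. The shares below are therefore not independent of the choice. Among the 31 loci lower at 12 h, replicate 4 was the highest of the 6 h libraries in 23 (74.2%) and replicate 1 the lowest in 24 (77.4%). Over all identifiers tested these shares were 18.9% and 35.8%. Among the other 51 members, replicate 2 was highest in 25 (49.0%, against 32.3% of all identifiers) and replicate 1 lowest in 21 (41.2%). Over all 82 members, the level in replicate 1 at 6 h lay below the 6 h mean by a median of 0.23 on the log2 scale (-0.02 for all identifiers), so this library carried the weakest peak. Without it, 117 loci met the rule, among them 80 of the 82. Each of these shares rests on a single set of 4 libraries, and the members share those libraries.

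**Figure D5:**
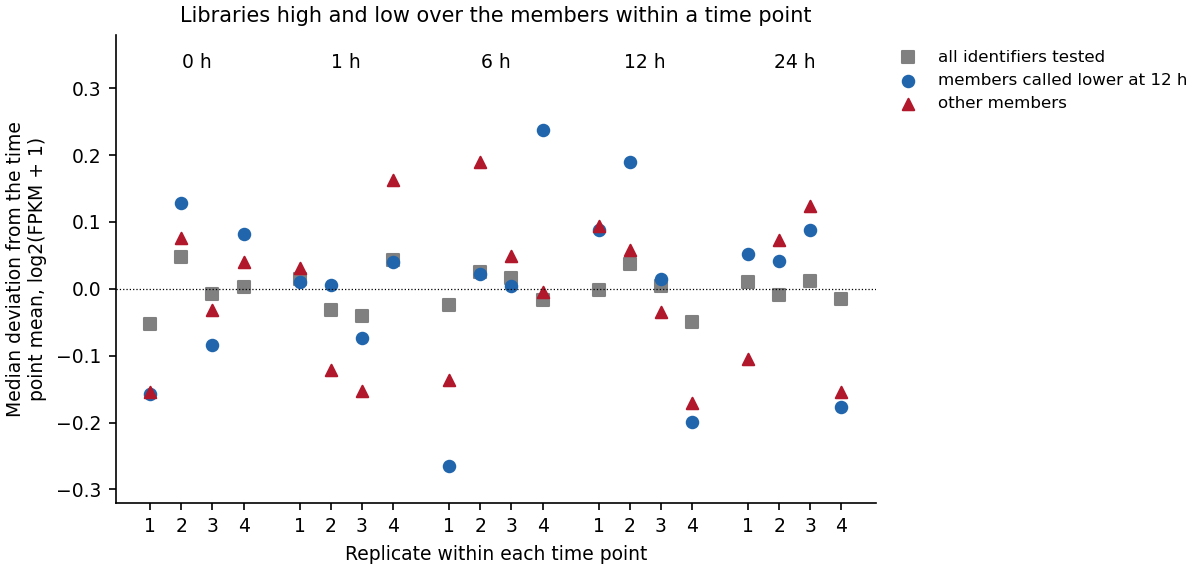
Deviation of each library from the mean of its time point in log2(FPKM + 1), as the median over all identifiers tested (grey), the 31 members called lower at 12 h (blue) and the other 51 members (red). The x axis gives the replicate number within each time point. At 6 h, replicate 1 was low for both groups of members (-0.26 and -0.14), replicate 4 was high for the 31 (0.24) and replicate 2 for the 51 (0.19).

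In 4 cases a pair of members were neighbours in the order of loci that passed the filter. OS09G0380000 and OS09G0380050 followed each other directly and measured 32.4, 43.1, 38.1 and 44.0 FPKM and 39.3, 58.9, 57.6 and 62.5 FPKM in the 4 libraries at 6 h. Both were lower at 12 h than at 0 h, by 0.96 and 0.76 on the log2 scale as decreases (FDR = 0.00221 and 0.0222). Their log2 levels correlated at r = 0.96 over the 20 libraries, and their deviations from the time point means at 0.79. OS01G0645900 and OS01G0646000 were also adjacent, at 25.7 ± 0.68 FPKM and 3.12 ± 0.24 FPKM at 6 h (SD, n = 4), with correlations of 0.95 and 0.65. OS02G0773500 and OS02G0774100 had 4 loci under the filter between them and correlated at 0.96 and 0.51, and both were among the 5 largest called falls at 12 h. The last pair, OS05G0447700 and OS05G0449200, had 5 loci between them and correlated at 0.72 over the libraries and -0.19 in the deviations. Members share the 6 h peak by choice, which raises the first of these correlations in each pair. Whether the reads were counted by strand is not given in the sources used here, so overlapping transcripts of adjacent loci cannot be told apart.

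The members were spread over all 12 chromosomes, from 3 on chromosomes 8, 10 and 12 to 12 on chromosome 2, and their transcript length of 426 to 3216 bases had a median of 1324 against 1453 for all OS loci that passed the filter.

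For comparison, 13 loci had the same margin but a 24 h level above the bound. Their 1 h mean was above the 0 h mean in 13 of 13, with a median log2 difference of 1.16, and 4 passed the test as higher at 1 h (beside 1.77% of all identifiers) and 5 as higher at 12 h (beside 5.76%). The choice by the 24 h level favours loci with a low control, which these values share, and the difference from the members was not tested.

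The jasmonate pathway acts in the response of rice leaves to chewing insects, and some of its loci could be named. Of 20 such loci 19 were tested, and 0 met the margin while 15 had a 24 h level above the bound. A further 8 named loci, of the WRKY, MPK3, calmodulin and CDPK signalling genes, included 0 with the margin and 5 above the bound. The share of all OS loci above the 24 h bound was not counted. Nothing is therefore read from the counts above it, here or for the JAZ loci below. With members at 0.403% of OS loci, a count of 0 among so few loci is near the background and says nothing particular of the pathway, and unnamed genes of it may be among the members. All 12 JAZ loci, which encode the repressors of jasmonate signalling, were higher at 6 h than at 0 h by limma-trend, beside 18.6% of all identifiers, with a median log2 fold change of 2.43. Their names come from the study, which reported their expression from these same libraries, so their rise here is no independent evidence of direction. The margins of the JAZ loci over the other times ran from -0.52 to 0.65, and in 11 of the 12 the 24 h level was above the bound. The locus nearest to the margin, OS09G0439200, had 10.3 ± 2.38 FPKM at 0 h, 58.1 ± 11.9 FPKM at 1 h, 145 ± 42.5 FPKM at 6 h, 48.2 ± 10.9 FPKM at 12 h and 101 ± 56.4 FPKM at 24 h (SD, n = 4). Its mean was thus highest at 6 h too, but its level at 1 h was already above the control and at 24 h it was high again. OS10G0575000, the gene of the transcription factor MYC2, had a margin of 0.20. The 9 lists of hormone and stress genes taken from general knowledge held 97 loci, among them all 28 with names from the study. Of the 97, 88 were tested and 0 were members, again beside 0.403%.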

How the data were processed

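Leaf RNA of 20 libraries was examined, 4 per time point. The authors filtered the reads, aligned them to IRGSP-1.0 with HISAT2 2.09, counted them with featureCounts 1.5.0-p3 and deposited FPKM values, which are scaled to library totals. Fragments recovered from FPKM were whole, within 0.01, for 100% of 35755 identifiers above 0. This depth limits loci with few fragments. Here log2(FPKM + 1) of 24058 identifiers, each at 0.5 FPKM or more in 4 libraries, was tested with limma-trend (limma 3.58.1, R 4.3.3) in a single fit with 15 residual degrees of freedom, and p-values were adjusted by Benjamini-Hochberg (FDR). Fold changes on this scale understate those of low loci. The plan foresaw groups by gene description and promoter motifs, which were not analysed here. Members and lists were chosen with earlier results of these data known. The 2 loci with the largest margin, the 2 of highest level, those with the largest changes at 1 h and 12 h, and the 3 on either side of each threshold were named by rule. Other loci were named after their values were seen. Alternatives were another pseudocount, no filter, 2 scalings, limma-voom, the 2 groups alone, a replicate block and each library left out. The test was checked on simulated data, and tables and figures were made with Python 3.11.15.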

Additional observations from a re-analysis of the deposited data

Results flagged for a closer look

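For 23 named loci, each time point was searched for a library far from the other 3, by Dixon's ratio at its 95% critical value for 4 libraries. Of 115 groups, 9 had such a library, and chance alone gives about 1 in 20. The 23 include loci named after their values were seen, some for a wide spread, so these rates are not directly comparable. Low libraries were OS02G0460200 at 24 h (replicate 1, 70.6 FPKM, nearest 104), OS07G0631900 at 12 h (replicate 4, 18.2 FPKM, nearest 30.8), OS09G0128400 at 12 h (replicate 4, 3.32 FPKM, nearest 4.48) and OS03G0765400 at 1 h (replicate 2, 0.854 FPKM, nearest 1.14). High libraries were OS04G0282400 at 1 h (replicate 2, 42.6 FPKM, nearest 17.2), OS05G0231700 at 24 h (replicate 1, 28.2 FPKM, nearest 21.6) and OS11G0323860 at 1 h (replicate 2, 26.04 FPKM, nearest 2.41). OS01G0720500 was far above the rest in replicate 3 at 0 h (64.5 FPKM, nearest 12.8) and in replicate 4 at 12 h (123 FPKM, nearest 14.6). None of the 9 was at 6 h.

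OS01G0143800 differed between 2 feeding times, with a log2 fold change of 0.83 at 24 h against 12 h (limma-trend FDR = 0.0347).

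Identifiers outside the OS loci were not part of the rule, and 24 of the 3715 tested met the same thresholds, 23 of 3004 with the prefix EPlOSAG and 1 of 701 with another prefix. The shares of these kinds were not compared with that of the OS loci by a test.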

How the results depend on the processing

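The rule held for 192 loci with a pseudocount of 0.1 (80 of the 82 among them), 249 with a margin of 0.6, 38 with a margin of 1 and 52 after median-of-ratios division, and for 77 to 117 when each library was left out, with 48 members kept in all 20 cases. Members lower at 12 h numbered 29 to 31 under the other settings, and 25 to 32 without single libraries. Members higher at 12 h numbered 1 with a pseudocount of 0.1, either scaling, the 2 groups alone or the replicate block, 0 to 2 without single libraries and 5 among the 95 loci without the 24 h bound, a count added after the data were seen. At 1 h, 2 members were lower without the filter and with the 2 groups alone, 1 to 7 without single libraries, while 2 to 3 were higher and 7 among the 95 loci. Members higher at 24 h than at 12 h numbered 2 with a pseudocount of 0.1, 0 without the filter, with limma-voom or with the 2 groups alone, and 0 to 2 without single libraries, and 0 to 1 were lower. At 6 h against 0 h, 72 to 79 passed without single libraries, and at 24 h against 0 h 21 to 26. The median correlation of deviations was 0.008 for libraries with the same replicate number (6 of 40 pairs over 0.1, highest 0.242). It was -0.01 for other pairs (6 of 120 over 0.1, highest 0.151). Whether the replicate number pairs some libraries was left undecided. With the replicate number as a block, 3 members were higher and 4 lower at 1 h, 30 lower at 12 h, 78 passed at 6 h and 27 at 24 h. The causes of these shifts were not tested.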
